A study of Caenorhabditis elegans with 2 samples.

Results

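The regions described here lay inside protein-coding genes on the autosomes of Caenorhabditis elegans, away from gene starts and away from the short RNA genes that hold many of the strongest ChIP-seq regions of the same experiment. A region of the pooled list was a member when its summit, the position of its highest signal, lay within a protein-coding gene. The summit also had to lie outside the window from 1000 bp upstream to 200 bp downstream of every protein-coding 5′ end and more than 250 bp from every tRNA, snRNA, snoRNA, rRNA and miRNA gene. Of the 1242 regions of the pooled list, 338 (27.2%) met the rule, 213 with a summit in an exon and 125 with a summit in an intron. A further 97 autosomal summits in genes fell in a promoter window, and 51 more lay beside a short RNA gene. The rule used position alone and no signal value.

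The chromatin came from whole young adult hermaphrodites of strain OP543, whose line stably expressed SDZ-38 with a GFP-FLAG tag at its C-terminus, 64 hours after worms were synchronized by L1 starvation. Sonicated chromatin was immunoprecipitated with an antibody to GFP according to the description, while the antibody field names sdz-38. There were 2 biological replicates of 1 group, so no condition could be set against another, and no library from worms without the tagged protein is analysed here. Whole animals mix all tissues, and the labels do not say which promoter drove the tagged protein.

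A gene body holds exons, which remain in the spliced RNA, and introns, which are removed. Worm introns are mostly short and rich in A and T, and coding exons are richer in G and C. Sequence-specific DNA-binding proteins are best known for binding near gene starts and at enhancers, some of which lie in introns. sdz genes were named for zygotic expression that depends on SKN-1, the transcription factor that specifies the embryonic endomesoderm, and RefSeq describes the SDZ-38 product as a protein with a C2H2-type domain, a fold that often binds DNA.

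The sequence at the summits shows what kind of DNA these regions covered. The 101 bases centred on the summit are given for 4 intron and 4 coding-exon regions, those with the highest signal value among members on the chromosomes other than the first autosome and with no untranslated sequence in the window. They were read from the RefSeq genome of build WBcel235, on the plus strand, and capitals mark bases of coding exons.

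lips-10 intron, chrII:8441657-8441757: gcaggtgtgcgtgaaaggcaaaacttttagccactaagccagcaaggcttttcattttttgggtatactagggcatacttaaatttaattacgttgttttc

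W06H8.6 exon, chrV:6224146-6224246: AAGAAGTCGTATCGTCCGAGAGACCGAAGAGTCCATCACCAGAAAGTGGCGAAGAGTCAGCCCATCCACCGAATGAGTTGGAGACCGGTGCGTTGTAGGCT

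F01F1.3 intron, chrIII:5874381-5874481: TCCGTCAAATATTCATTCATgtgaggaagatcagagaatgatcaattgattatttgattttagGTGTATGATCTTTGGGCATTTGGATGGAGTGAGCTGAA

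mnk-1 exon, chrII:10544460-10544560: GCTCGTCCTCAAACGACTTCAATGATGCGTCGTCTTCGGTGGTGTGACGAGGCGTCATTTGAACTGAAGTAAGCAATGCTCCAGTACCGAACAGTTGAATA

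lec-3 intron, chrII:9993467-9993567: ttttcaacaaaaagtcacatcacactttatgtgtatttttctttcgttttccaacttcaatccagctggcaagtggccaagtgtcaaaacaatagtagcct

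lact-2 exon, chrII:10098493-10098593: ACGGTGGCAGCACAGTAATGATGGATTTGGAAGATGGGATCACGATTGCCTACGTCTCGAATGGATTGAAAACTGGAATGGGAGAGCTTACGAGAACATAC

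Y17D7C.2 intron, chrV:18719383-18719483: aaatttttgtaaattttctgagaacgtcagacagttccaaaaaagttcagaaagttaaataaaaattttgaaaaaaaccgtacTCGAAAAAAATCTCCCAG

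lec-3 exon, chrII:9999882-9999982: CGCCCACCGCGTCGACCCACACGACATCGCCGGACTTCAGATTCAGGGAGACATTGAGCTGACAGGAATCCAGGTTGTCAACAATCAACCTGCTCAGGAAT

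The intron windows of lips-10, lec-3 and Y17D7C.2 had GC contents of 38.6%, 36.6% and 27.7%, and the last of these ran through stretches of A and T. The intron of F01F1.3 was 43 bases long, and the printed window took in coding bases on both sides of it. The exon windows of W06H8.6, mnk-1, lact-2 and lec-3 had GC contents of 54.5%, 48.5%, 46.5% and 55.4%, each above the intron windows shown beside it.

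Exons held more of the regions than their share of sequence. The exon share was 63.0% (213 of 338, exact 95% interval 57.6% to 68.2%), while exons made up 43.1% of the 44.1 Mb of autosomal gene sequence that met the same rule. There were 11.2 regions per Mb of exon and 4.98 regions per Mb of intron, a ratio of 2.25. Coding exons held 169 regions, at 9.98 per Mb. Exon sequence outside the coding sequence held 44, at 21.0 per Mb, and was 13.02% of the regions against 4.75% of the sequence. In 38 of those 44 the summit lay past the last coding base of the host gene, on the side of the 3′ end. With the coding sequence alone set against everything else, the density ratio was 1.60.

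The direction was the same on each of the 5 autosomes. Exon and intron densities were 10.5 and 4.04 per Mb on chromosome I, 11.7 and 6.65 per Mb on chromosome II, 11.3 and 4.60 per Mb on chromosome III, 10.8 and 4.58 per Mb on chromosome IV, and 11.5 and 5.38 per Mb on chromosome V. Chromosome II had the lowest ratio, 1.77, and chromosome I the highest, 2.59. The exon densities spanned a narrower relative range than the intron densities. All regions together stood at 6.61, 9.02, 7.33, 7.12 and 8.29 per Mb on chromosomes I to V, with 60, 71, 59, 63 and 85 regions. The central part of each chromosome, taken as the middle 1 of 3 stretches of equal length, held 37.3% of the regions (126 of 338, interval 32.1% to 42.7%), against 32.8% of the sequence that met the rule.

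**Figure D1:**
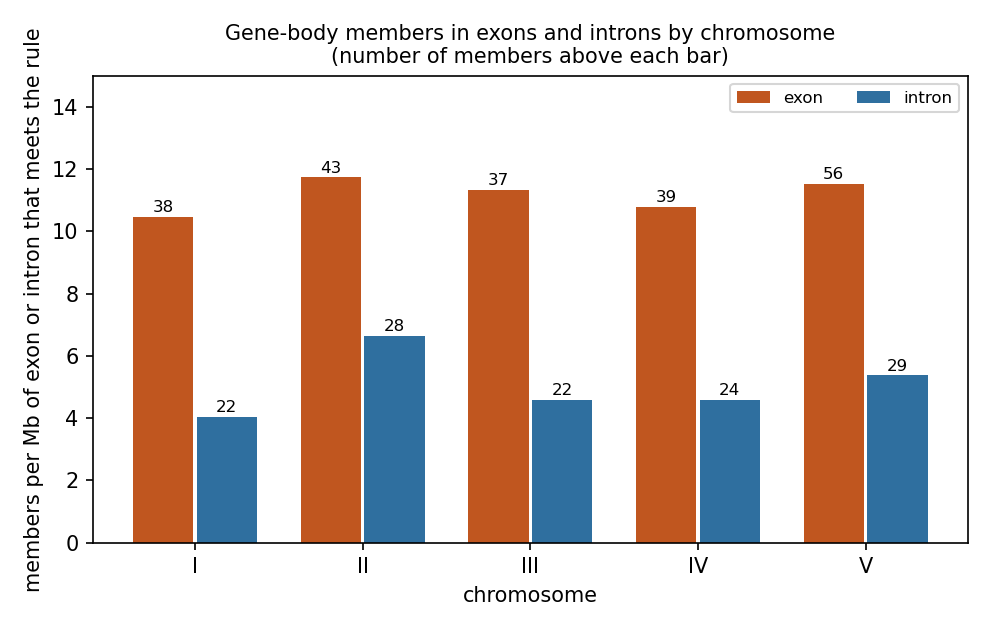
Regions per Mb of exon and of intron sequence that met the rule, by chromosome (vertical axis from 0), with the number of regions above each bar and no error bars, as the whole list is counted. The exon bar is the taller on all 5 autosomes, at 10.5 to 11.7 per Mb against 4.04 to 6.65 per Mb in introns.

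The same question was put to each replicate's own list. The rule had not used these lists, but the pooled list was made from both replicates, so they are no outside check. Replicate 1's list held 7251 qualifying regions of 17743, and 56.8% of them (interval 55.6% to 57.9%) had an exonic summit. Replicate 2's list held 5027 of 12648, and 54.2% (52.8% to 55.6%) were exonic. Both shares lay above the 43.1% of the sequence. In replicate 1 the share was 72.0% among the 50 strongest qualifying regions, then 67.0%, 63.7%, 58.9% and 55.4% at ranks 51 to 150, 151 to 500, 501 to 2000 and beyond 2000, so it was lower at each step down the list. Replicate 2 gave 58.0%, 64.0%, 56.6%, 56.1% and 52.6% over the same steps, with no such even course at the top. In the pooled list the share was 56.0% over the 50 strongest members, 64.0% at ranks 51 to 150 and 64.4% at ranks 151 to 338. The interval of the pooled list's first step, 41.3% to 70.0%, took in the share of the sequence.

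**Figure D2:**
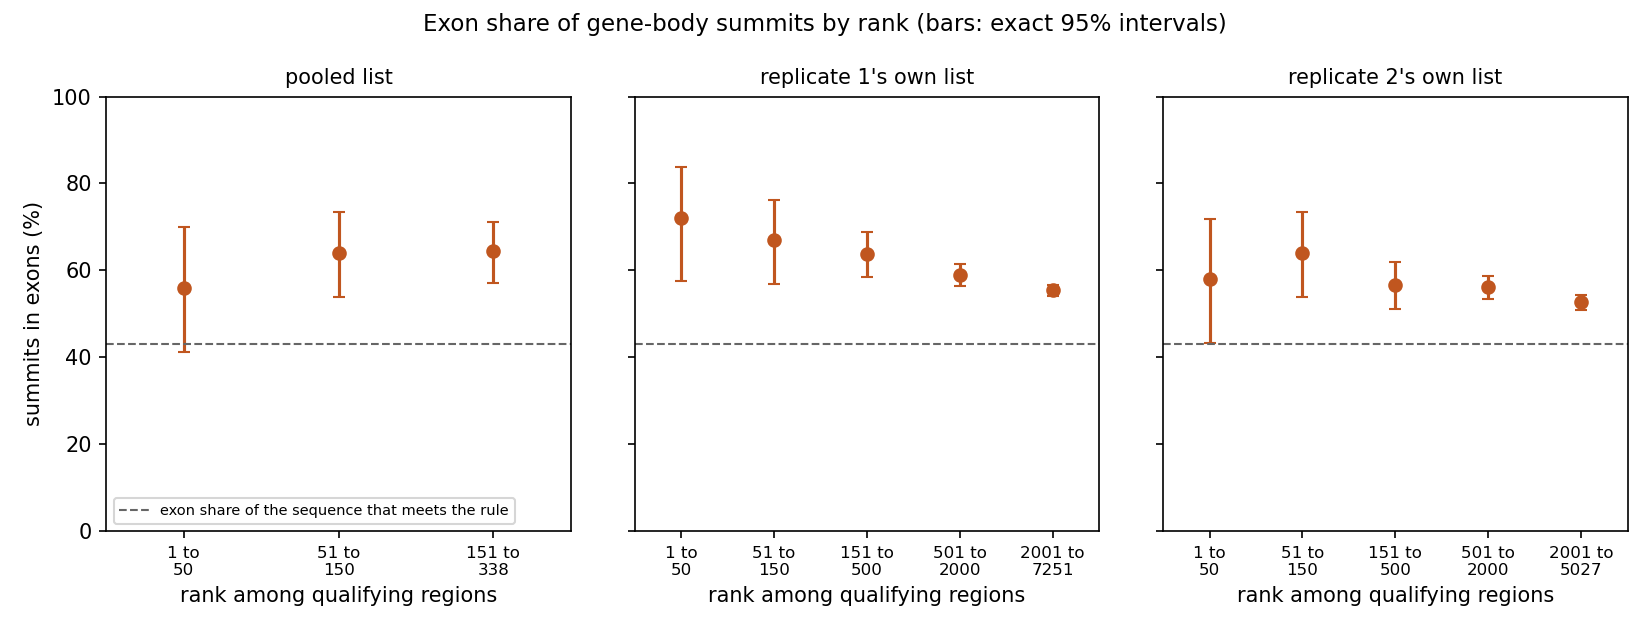
Share of summits in exons (vertical axis, percent) by rank among qualifying regions of the pooled list and of each replicate's own list (horizontal axis, strongest first), with exact 95% intervals as bars. The dashed line is the exon share of the sequence that met the rule, 43.1%, and every point lies above it, from 52.6% to 72.0%.

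GC content moved with this difference, so its values stand beside it. Within 50 bp of the summit the mean GC content was 43.4% ± 8.27 in exon regions (SD, n = 213) and 41.9% ± 8.76 in intron regions (SD, n = 125), against 40.3% and 32.97% over all exon and intron bases that met the rule. Intron summits thus stood further from their own kind of sequence than exon summits did. Windows centred 300 bp to either side averaged 39.3% for exon regions and 39.2% for intron regions, and the mean difference of summit minus flank was 4.04 points in exon regions and 2.79 points in intron regions. Over all members the difference was 3.58 points, and it was 3.08 points with members taken from the 1242 strongest regions of replicate 1 alone and 1.54 points with those of replicate 2 alone. The summit was the richer in 145 of 213 exon regions and 69 of 125 intron regions. Against their flanks, regions in exon sequence outside the coding sequence went the other way, at 35.4% against 37.6%, a mean difference of -2.25 points. Their summits were still above the 32.2% of all such sequence that met the rule.

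**Figure D3:**
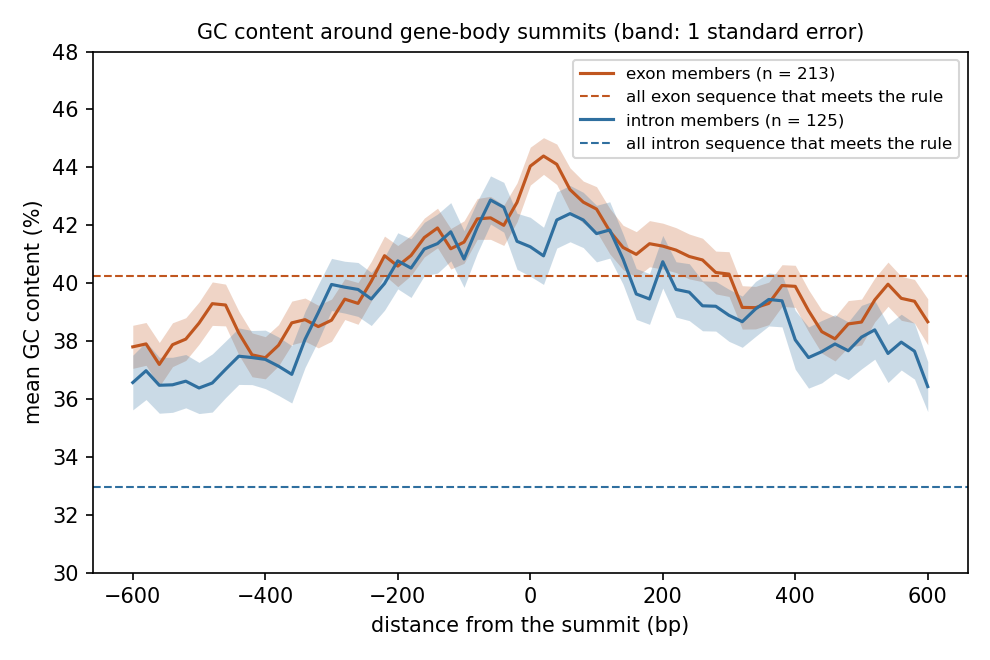
Mean GC content (vertical axis, percent, from 30) in 51-base windows at distances from -600 to 600 bp of the summit, for exon and intron regions, with 1 standard error over regions as a band. Dashed lines give all exon (40.3%) and all intron (32.97%) bases that met the rule. The intron curve lies above the intron line at every distance, and the exon curve is above the exon line only within 300 bp of the summit.

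Counted within classes of GC content, the exon excess was largest in GC-poor sequence. These classes were chosen after the overall values were seen. Where the 101-base window held under 30% GC, there were 6.14 regions per Mb of exon (10 regions) and 1.40 per Mb of intron (14 regions), a ratio of 4.37. From 30% to 35% the densities were 7.35 and 1.93 per Mb, and from 35% to 40% they were 9.29 and 5.87 per Mb. From 40% to 45% they were 10.1 and 11.4 per Mb (48 and 32 regions), a ratio of 0.882. From 45% to 50% they were 14.5 and 11.5 per Mb, and from 50% upward 24.5 and 33.4 per Mb (45 and 26 regions), a ratio of 0.733. In exons the density was higher at each step of GC content, and in introns too, though it was nearly level between 40% and 50%. Above 40% GC exons were the denser only from 45% to 50% (43 and 16 regions). How much of the exon excess GC content accounts for was not tested.

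Along the host gene, from 5′ to 3′, 4 equal parts held 43, 98, 86 and 111 regions. Densities were 4.58, 7.83, 7.00 and 10.2 per Mb of the sequence that met the rule, lowest in the first and highest in the last, with gene-start windows already removed from both counts. The last of these parts held 32.8% of the regions and 24.2% of the sequence, and 81 of its 111 regions were exonic. Median distance to the 3′ end was 910 bp for exon regions and 2580 bp for intron regions. The median host was 3000 bp long for exon regions and 5352 bp long for intron regions, and the median intron with a summit measured 796 bp. Repeat-masked bases held the summit of 10.8% of exon regions and 31.2% of intron regions, against 11.8% of exon and 54.2% of intron sequence that met the rule. The exon and intron densities per Mb include masked sequence, and its part in the exon excess was not tested.

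Few of these regions were repeated among the strongest regions of both replicates. The authors' signal value, a score whose scale is not stated, had a median of 42.9 (39.0 to 117) over the 338 regions and 44.1 over all 1242. Exon regions had a median of 42.8 and a highest value of 64.6, and intron regions 43.04 and 117. The optimal list, which the authors made with the irreproducible discovery rate procedure, held 7 of the 338 (2.07%, interval 0.837% to 4.22%), against 8.21% of all pooled regions, where 21 of the 102 in the list were mitochondrial. It held 1 exon region (0.469%, up to 2.59%) and 6 intron regions (4.80%, from 1.78% to 10.2%). Shares in the other nuclear classes were 3.98% of 201 autosomal promoter regions, 3.80% of 79 autosomal intergenic regions, 4.77% of 398 regions on X away from short RNA genes and 21.5% of 205 regions beside a short RNA gene, and all 21 mitochondrial regions were in the list.

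Overlap with the lenient lists of both replicates was 86.4% to 95.2% over the classes, in a pooled list made from both. A region of each replicate overlapped 292 of the 338 (86.4%, interval 82.3% to 89.9%), against 88.6% of all pooled regions. With members taken from the 1242 strongest regions of replicate 1 alone the share was 42.8%, and from those of replicate 2 alone 58.2%. A further 38 were overlapped in replicate 1 alone and 8 in replicate 2 alone, and each of the 338 was overlapped in at least 1. When only the 1242 strongest regions of each replicate counted, 28 of the 338 remained (8.28%, interval 5.58% to 11.8%), against 20.1% of all pooled regions. Exon regions accounted for 19 of these 28 (8.92% of 213) and intron regions for 9 (7.20% of 125), with intervals that overlap. The same share was 15.4% in autosomal promoters, 12.7% in autosomal intergenic sequence, 17.1% on X, 45.4% beside short RNA genes and 95.2% of the 21 mitochondrial regions. Differences between classes were not tested, since regions are not replicates of a condition.

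**Figure D4:**
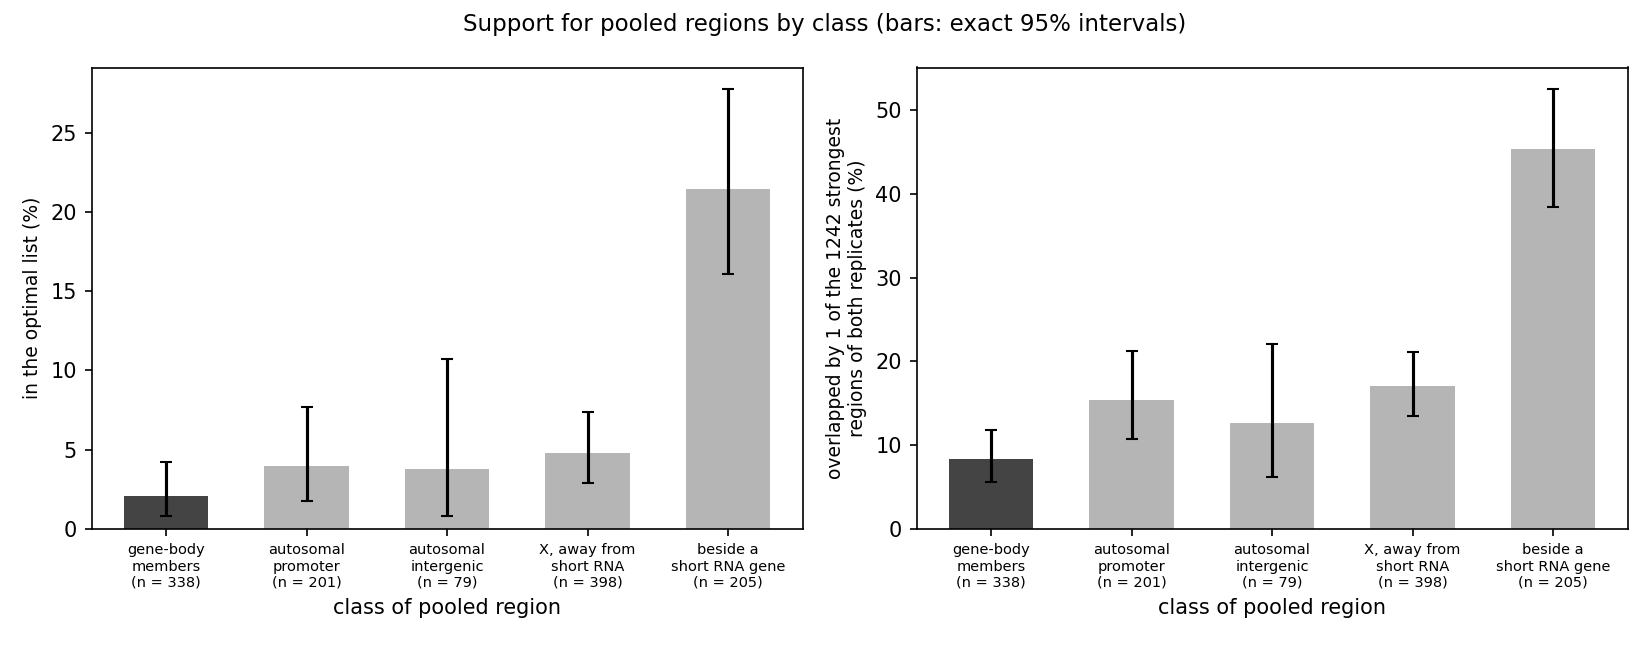
Share of pooled regions in the optimal list (left, percent) and share overlapped by 1 of the 1242 strongest regions of both replicates (right, percent), by class of nuclear region, with exact 95% intervals as bars. Of these classes gene-body regions, the dark bars, stand lowest in both panels, at 2.07% and 8.28%, and regions beside a short RNA gene stand highest, at 21.5% and 45.4%, with the 21 mitochondrial regions not drawn. Gene-body intervals overlap those of promoter and intergenic regions in both panels, and that of X regions in the left panel. The X class joins gene bodies with other sequence, so X gene bodies are not shown alone.

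Among regions that entered through the pooled list, the replicates' signal values ran in opposite order. Over the 292 regions overlapped in both, Spearman's rho of the replicates' signal values was -0.426, with -0.434 over 183 exon regions and -0.412 over 109 intron regions. The pooled signal value had a rho of 0.388 with replicate 1 and 0.255 with replicate 2 over the same regions. These are descriptions: all points share 1 pair of libraries, and the pooled list, which set who entered, was made from both. A region weak in 1 replicate thus tended to enter only when strong in the other. For that reason the sign of rho cannot be read as disagreement between the replicates, and no rho without this selection is given. Replicate 1's 1242 strongest regions overlapped 157 members and replicate 2's overlapped 129, each count including the 28 that both overlapped. Another 80 members (23.7%) were among the strongest of neither.

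**Figure D5:**
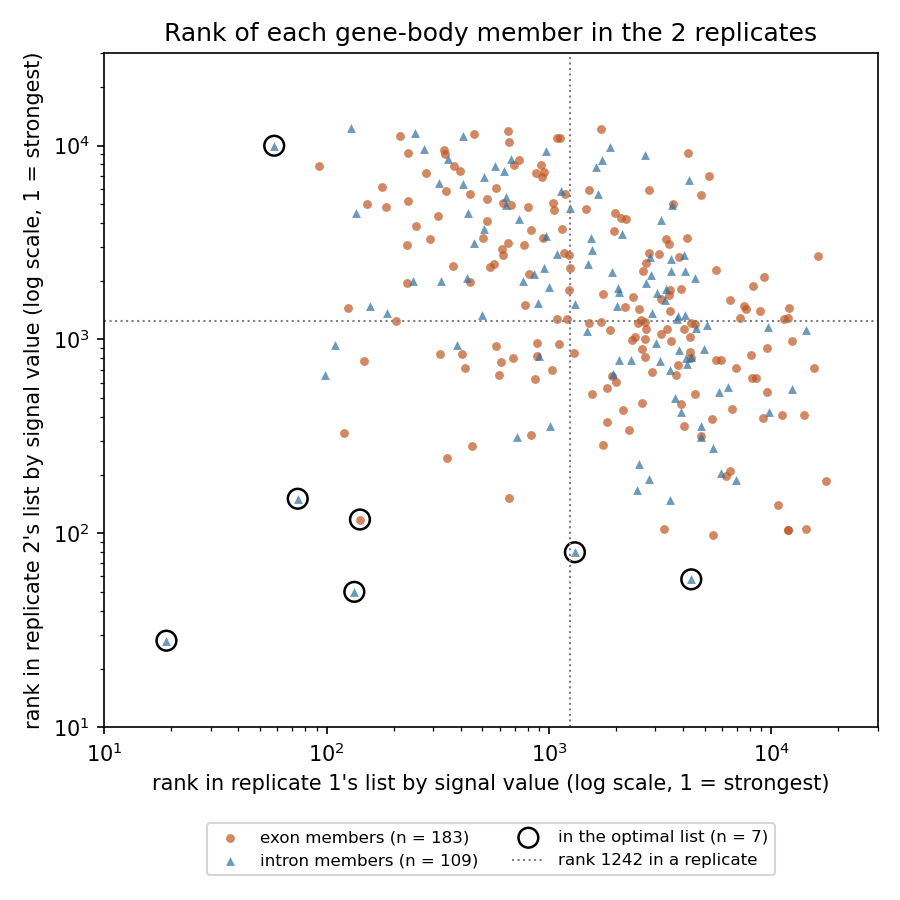
Rank of the best overlapping region in replicate 1 (horizontal axis) and in replicate 2 (vertical axis) for the 292 regions overlapped in both, on log scales where 1 is the strongest. Dotted lines mark rank 1242 and open circles the 7 regions of the optimal list. The upper left holds 96 regions within rank 1242 in replicate 1 only, the lower right 94 in replicate 2 only, the lower left 28 in both and the upper right 74 in neither.

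The strongest region lay in an intron of ints-8, which encodes a subunit of the Integrator complex that cleaves the 3′ ends of snRNAs. It spanned chrI:13463779-13464234 with a signal value of 117, ranked 24 in the pooled list, and had signal values of 72.1 in replicate 1 (rank 19) and 54.3 in replicate 2 (rank 28). It was the only member overlapped by 1 of the 100 strongest nuclear regions of both replicates. Its summit lay inside rpr-1, which encodes the RNA subunit of RNase P, the enzyme that trims the 5′ ends of tRNA precursors. RefSeq classes rpr-1 as other non-coding RNA, so the rule did not remove the region. GC content was 54.5% at the summit and 28.7% in the flanks.

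The 5 other intron regions of the optimal list had signal values from 62.9 to 66.9, and their ranks in the replicates differed widely. In lips-10, named as a lipase-related gene, the region at chrII:8441479-8441934 had signal values of 39.9 in replicate 1 (rank 74) and 29.7 in replicate 2 (rank 151). In lec-3, a galectin gene whose product binds galactose-containing sugars, the region at chrII:9993289-9993744 had 35.3 (rank 133) and 40.8 (rank 50). Both were strong in each replicate. In F01F1.3, a gene for a protein with an MIF4G domain, the region at chrIII:5874203-5874658 had 42.7 in replicate 1 (rank 58) and 13.8 in replicate 2 (rank 9977). In Y17D7C.2, annotated as an ADP-ribosyl cyclase, the region at chrV:18719205-18719660 had 19.5 in replicate 1 (rank 4360) and 37.5 in replicate 2 (rank 58). These regions were strong in 1 replicate only, replicate 1 for F01F1.3 and replicate 2 for Y17D7C.2. In unc-104, the kinesin that carries synaptic vesicle precursors along axons, the region at chrII:7001298-7001753 had 24.4 in replicate 1 (rank 1306) and 34.3 in replicate 2 (rank 80). Its summit lay 101 bp from the tRNA pseudogene C52E12.t1, and 71.1% of its 31-base words occurred once in the genome.

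The optimal list's 1 exon region lay in a coding exon of D2030.3, described as a Fanconi anemia group I protein, a family that acts in the repair of DNA crosslinks. The region spanned chrI:7578873-7579328 with a signal value of 64.6, and had 35.1 in replicate 1 (rank 141) and 30.9 in replicate 2 (rank 118). Both ranks were among the strongest 150 of each list. GC content was 36.6% at the summit and in the flanks alike.

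Other regions high in both replicates lay in genes with varied roles. An intron of Y65A5A.2, annotated as a glycoprotein, had a signal value of 59.7, with 37.5 in replicate 1 (rank 98) and 23.7 in replicate 2 (rank 658). The exon of R11A5.6 that overlaps pck-2 had 58.7, with 30.04 (rank 349) and 27.6 (rank 246). A coding exon of mnk-1, the kinase that acts below MAP kinases on translation factors, had 54.6, with 36.1 (rank 119) and 26.3 (rank 331). All 3 lay far up both replicate lists. The end of mec-17, the tubulin acetyltransferase gene of touch neurons, had 51.9, with 34.8 (rank 147) and 23.04 (rank 776). In a coding exon of atp-1, the alpha subunit of mitochondrial ATP synthase, the value was 50.1, with 28.8 (rank 451) and 27.03 (rank 284), and that gene was named after its values were seen. Introns of F26A3.4, a tyrosine phosphatase gene, and C38C3.6 had 52.4 and 51.1, and a coding exon of lact-2 had 52.2.

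Several of the 25 strongest members had little support from 1 replicate. mrrf-1, which encodes the mitochondrial ribosome recycling factor, had a coding-exon region with a signal value of 57.1 and 43.9 in replicate 1 (rank 50), and no region of replicate 2 overlapped it. rol-6, a cuticle collagen gene, had 51.9, with 28.9 in replicate 1 (rank 439) and 15.9 in replicate 2 (rank 5640). rpl-35, a large ribosomal subunit gene, had 51.2, with 31.9 (rank 251) and 17.4 (rank 3833). The intron region of lfe-2, an inositol-trisphosphate 3-kinase gene, had 52.04, with 35.3 (rank 135) and 16.7 (rank 4515). In these 4 the stronger value was replicate 1's. csr-1, the Argonaute gene of germline small RNA pathways, showed the opposite at its 3′ end, with 52.7 in the pooled list, 20.7 in replicate 1 (rank 3272) and 31.8 in replicate 2 (rank 106), where the summit also lay in the overlapping gene frpr-10. Introns of nhr-46 and ethe-1 and a coding exon of dys-1, the dystrophin gene, had pooled values of 55.1, 53.7 and 51.5 and were likewise higher in rank in replicate 1.

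Non-coding genes outside the 5 classes of the rule lay near a further set of regions, and most of those were intronic. Within 250 bp of such a gene or pseudogene lay 31 of the 338 summits (9.17%), 12 of them inside it, against 6.41% of the sequence that met the rule. Intron regions accounted for 23 of the 31 (18.4% of 125, interval 12.04% to 26.3%), against 8.15% of intron sequence. Exon regions accounted for 8 (3.76% of 213, interval 1.64% to 7.27%), against 4.13% of exon sequence. By type, 20 were genes of other non-coding RNA, 5 were piRNA genes, 2 tRNA pseudogenes, 2 antisense RNA genes, 1 a long non-coding RNA gene and 1 a pseudogene.

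The srpr genes, which encode the RNA of the signal recognition particle that targets nascent proteins to the endoplasmic reticulum, lay at 3 of these. RefSeq lists 5 srpr genes, each 298 or 299 bases long. The summit in ckb-2, a choline kinase gene, lay inside srpr-1.2 and had a signal value of 48.2, with ranks 2347 in replicate 1 and 781 in replicate 2. That in klp-6, a kinesin gene of ciliated neurons, lay inside srpr-2.2 and had 46.5, with rank 358 in replicate 1 and no region in replicate 2. That at the 3′ end of pals-26 lay 29 bp from srpr-1.1 and had 55.0, with ranks 662 and 153. GC content at the summits inside srpr-1.2 and srpr-2.2 was 61.4% and 52.5%. The 31-base words that occurred once made up 48.1%, 58.5% and 68.3% of these regions in ckb-2, klp-6 and pals-26, so reads from the copies may not be told apart. Summits nearest the other 2 srpr genes lay 14756 bp from srpr-2.1 and 24507 bp from srpr-3. Over all members, 16 had fewer than 90% such words, among them the region in gpa-1 (59.9%), a G protein subunit gene whose summit lay inside the non-coding gene T19C4.11.

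The hosts were many and nearly all held a single region. The 338 regions fell in 324 of the 16005 autosomal genes with sequence that met the rule (2.02%), 312 genes with 1 region, 10 with 2 and 2 with 3. The share of genes with a region was larger in longer genes, from 0.909% of 4729 genes with up to 1000 bp of such sequence to 6.06% of 709 genes with over 10000 bp. Per Mb the order was reversed, at 16.8 regions in the shortest class, 9.72, 8.45 and 6.36 in the next 3 and 4.09 in the longest. In the shortest class 39 of the 43 regions were exonic, and in the longest 21 of 48. Neighbouring summits on a chromosome were a median of 170222 bp apart, and 6 of 333 neighbouring pairs were under 2000 bp apart. Summits of 15 regions lay in 2 or more overlapping genes.

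W06H8.6 and lec-3 were the hosts with 3 regions. In W06H8.6, a gene of chromosome V for a protein with a BHLH domain, all 3 were exonic, with signal values of 41.4, 42.6 and 56.1 over 5144 bp. In replicate 1 those regions had 27.3, 22.03 and 35.6, and in replicate 2 they had 13.1, 22.2 and 20.9. The strongest had a GC content of 54.5% against 35.6% in its flanks, and the weakest lay inside the non-coding gene W06H8.5, which overlaps the host. In lec-3 the 3 regions spanned 6415 bp of chromosome II, in introns at 63.5 and 49.0 and in a coding exon at 51.9. The second intron region had 20.2 in replicate 1 (rank 3696) and 24.8 in replicate 2 (rank 498), and the exon region 26.2 (rank 833) and 26.4 (rank 322). Hosts with 2 regions included dys-1, the cAMP-dependent kinase gene kin-1, the sodium pump gene eat-6, the chromatin genes let-526 and epc-1, and the germline genes cgh-1 and csr-1.

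lec-3 lies near the gene of the tagged protein, and so do several other hosts. sdz-38 spans chrII:9980886-9981860. Within 20000 bp of it lay 5 regions, in lec-3 (3 regions), aakg-5 and dtmk-1, which is 223 per Mb of the sequence that met the rule, and within 50000 bp lay 6, the last in pho-11, or 119 per Mb. The whole of chromosome II had 9.02 per Mb. The dtmk-1 region, in a thymidylate kinase gene, had a pooled value of 46.2, with 40.6 in replicate 1 (rank 67) and no region in replicate 2. The aakg-5 region, in a gene for a subunit of AMP-activated kinase, had 42.6, with 25.8 (rank 944) and 19.2 (rank 2331). The pho-11 region, in an acid phosphatase gene, had 44.6, with 30.4 (rank 326) and 19.7 (rank 2005). The labels speak of an insertion that targets sdz-38. Where it lies and how many copies of the surrounding sequence the strain carries is not given in the sources used here, and its part in these values was not tested.

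By role, the listed gene groups held few of the hosts. The groups were written with earlier results of these data known. Each count is set beside 2.02%, the share that held a region among autosomal genes with sequence that met the rule. That share was larger in longer genes and takes no account of gene length, so densities per Mb follow the last list. Densities depend on length as well: 16.8 per Mb up to 1000 bp of such sequence and 4.09 over 10000 bp. No list was set beside genes of its own length. Germline genes held a region in 3 of 25 (cgh-1, csr-1 and prg-1), with 5 regions in all and a median signal value of 45.5. cgh-1, a conserved RNA helicase of germ granules, had exonic regions at 45.5 and 40.01, and prg-1, the Piwi protein that binds piRNAs, had a coding-exon region at 42.3 with 21.99 in replicate 1 and 20.4 in replicate 2. Dynein and kinesin motors held a region in 4 of 22, which were klp-18 (47.8), klp-6 (46.5), zen-4 (43.4) and osm-3 (41.0). klp-18, a kinesin of the meiotic spindle, was within the strongest 1242 of both replicates, with 29.3 (rank 406) and 22.7 (rank 845). That list did not hold unc-104, which belongs to the same family.

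Cuticle and epidermis genes held a region in 3 of 21, in rol-6 (51.9), vab-10 (43.99), a spectraplakin that anchors the epidermis, and mup-4 (41.1), a receptor of the epidermal attachments. Chromatin genes held a region in 3 of 33, in the histone demethylase rbr-2 (45.3), the chromatin remodeller chd-7 (43.03) and let-418 (42.8), the Mi-2 homologue. Muscle genes held a region in 1 of 20 (dys-1, with 2 regions), basement membrane genes in 1 of 15 (mig-6, 39.2) and intestinal genes in 1 of 15 (act-5, 41.2, with no region in replicate 2). None of 21 neuronal synapse and channel genes, 25 genes of the SKN-1 endomesoderm network and sdz group, and 13 genes of RNA polymerase III and its factors held a region. Muscle and basement membrane genes had 5.48 and 5.33 regions per Mb of the sequence that met the rule, below 7.66 for all members. The germline, motor, intestinal, cuticle and chromatin lists lay above it, at 67.4, 27.9, 25.8, 19.2 and 16.99 per Mb. The intestinal value rests on 1 region, in act-5. With 25 genes or so in a list, a single host moves its share by several points, and none of these lists was tested.

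Genes were also grouped by the words of their RefSeq descriptions. Of all autosomal genes with sequence that met the rule, 2.02% held a region. Of 2023 genes described as receptors 22 held a region (1.09%, interval 0.683% to 1.64%), and of 1255 described as uncharacterized proteins 11 did (0.876%, 0.438% to 1.56%). Of 453 kinase genes 7 held a region (1.55%) and of 263 phosphatase genes 8 did (3.04%). The share was highest for motor proteins described as dynein, kinesin or myosin, with 4 of 61 (6.56%, 1.82% to 15.9%), and for genes described with ubiquitin, with 8 of 132 (6.06%, 2.65% to 11.6%). Collagen genes had 4 of 146 (2.74%), in rol-6, col-102, col-103 and col-151, and the windows at col-102 and col-103 had GC contents of 62.4% and 67.3%. Cytosolic ribosomal protein genes, a group added after the values were seen, had 3 of 79 (3.80%), all exonic, in rps-16 (48.7), rpl-35 and rpl-31. Per Mb of the sequence that met the rule, motor and ubiquitin genes had 11.1 and 15.3 regions. Collagen and cytosolic ribosomal protein genes had more, at 22.4 and 41.1 per Mb. All genes with up to 1000 bp of such sequence had 16.8 per Mb, so the value for all members takes no account of length. Kinase, receptor and uncharacterized genes had 4.17, 5.11 and 5.83 per Mb, phosphatase genes 10.2, and all members 7.66.

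Of 4 short words searched on both strands within 50 bp of the summit, GCGCCA and CCACTC were more frequent in intron windows than in exon windows, with intervals that overlap, and GAGAGA and GTTCGA had like shares in both. GCGCCA was in 8 of 125 intron windows (6.40%, interval 2.80% to 12.2%), against 1.72% of all intron windows that met the rule, and in 2 of 213 exon windows (0.939%), against 1.44% of exon windows. CCACTC was in 5 of 125 intron windows (4.0%), against 1.67%, and in 0.469% of exon windows, against 2.86%. GAGAGA was in 8.00% of intron windows and 7.98% of exon windows, against 4.19% and 5.61%. GTTCGA, part of the B box inside tRNA genes, was in 4.0% of intron and 4.69% of exon windows, against 3.103% and 5.13%. No word is part of another, a match is a description of sequence only, and GCGCCA and CCACTC are themselves rich in G and C, as intron summits were relative to introns.

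The members closest to the limits of the rule had signal values from 39.5 to 66.9. Just past the upstream limit lay the summits in rpl-31, piit-1 and lips-10, with 41.3, 39.5 and 66.9. They lay 1033, 1044 and 1060 bp upstream of the starts of the neighbouring genes sac-2, sas-5 and eif-3.G. Just past the downstream limit lay R11A5.6, exo-1 and thum-1, at 258, 265 and 269 bp, with 58.7, 42.5 and 43.2. Nearest a short RNA gene lay hsp-1, cgh-1 and Y56A3A.7, at 309, 326 and 419 bp, with 46.5, 45.5 and 41.4. Just outside, the closest summits lay 989 bp upstream of nemt-1 (42.95), 195 bp downstream of the start of Y57G11C.33 (42.6) and 242 bp from the short RNA gene F58D5.12 (46.4).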

How the data were processed

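ChIP-seq region lists of 2 biological replicates of 1 group were analysed. Per the file notes deposited with the samples, each replicate's lenient list of peaks and background was made from its alignment and a control alignment, the pooled list from both replicates, and the optimal list by the irreproducible discovery rate procedure. The deposited signal value is the authors' score in the narrowPeak layout, and the deposited summit offset is another column of that layout. The sources used here do not give the scale of the score, nor name an aligner or a peak caller. Alignments, signal tracks, the control and the lists of build ce10 were not used here, so sequencing depth is unknown, and precision is set by the number of regions.

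No region of the ce11 lists passed a chromosome end of the WBcel235 RefSeq genome, whose annotation (WormBase release 298) gave the genes. Positions are 1-based. A summit was exonic when any transcript's exon held it, and with nested genes the host was the gene whose exon held the summit, or else the shortest. The sequence that met the rule is every autosomal base that would qualify as a summit. Shares carry exact 95% intervals (Clopper-Pearson), which reflect counting error alone, and no test was run over regions. A region was taken as unique where at least 90% of its 31-base words occurred once in the genome. GC content was taken within 50 bp of the summit and in flanks centred 300 bp away.

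Genes named were the hosts of the 25 strongest members, all members of the optimal list, hosts with 3 or more members, members among the 100 strongest nuclear regions of both replicates, up to 4 members of each gene list and the 3 members nearest each limit of the rule. The members, gene lists and words were chosen with earlier results of these data known. Genes named for a non-coding gene, for 2 regions, for their distance to sdz-38 or for a gene description were chosen after their values were seen. Alternatives covered other promoter windows, distances, lists, exon definitions, overlaps, windows and flanks. Promoter windows at every transcript's 5′ end and members without those near sdz-38 were added after seeing the data. The rule and the word counts were tested on simulated data. Python 3.11.15, numpy 2.4.6, scipy 1.17.1 and matplotlib 3.10.9 were used.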

Additional observations from a re-analysis of the deposited data

How the results depend on the processing

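Of 103 values recomputed over 19 settings and 8 results, 92 stayed within the limit set for their kind, 11 moved past it, and 0 changed direction. That limit was the 95% interval for a share, the spread between the replicates' lists for GC content and signal value, and 1.5 times for the number of regions. Wider promoter windows (2000 bp upstream to 500 bp downstream) left 235 regions, and 300 lay wholly inside a gene. With the 169 strongest members, overlap in both replicates was 90.5%, overlap by the strongest regions of both was 14.8% and the median signal value was 45.9. With the coding sequence alone as exon, the exon share was 50%, against 38.4% of the sequence. With the 2500 strongest regions of each replicate, 23.96% were overlapped in both. With flanks centred 600 bp away, the GC difference was 5.14 points. Taking the 1242 strongest regions of each replicate alone in place of the pooled list, so leaving out the other replicate, overlap in both replicates was 42.8% to 58.2%, the median signal value 23.1 to 26.9 and the GC difference 1.54 points (without replicate 1) to 3.08 points. In those lists 366 to 400 regions met the rule, 59.0% to 65.8% were exonic, 1.25% to 2.19% overlapped the optimal list, 7.75% to 8.74% were overlapped by the strongest regions of both replicates, and 35.3% to 36.6% lay in the central 1 of 3 equal stretches of a chromosome. The cause of these differences was not tested. With promoter windows at every transcript's 5′ end, 315 regions met the rule, and 332 did without those within 50000 bp of sdz-38.

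Limits: worms without the tagged protein are not analysed here, so whether a region marks SDZ-38 was not tested. The lists are lenient, the depth behind each region is unknown, and the optimal list holds 7 members, which leaves each share wide. No paired analysis was possible because the samples form 1 group.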
